A study of Homo sapiens with 8 samples.

Results

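The genes described here are 28 genes of cholesterol synthesis, uptake and sterol sensing, named as a set by their function, with earlier results of these data known. All 28 were found among the 58302 genes of the deposited tables, and all 28 had a mean of at least 1 FPKM (fragment counts scaled to gene length and library size) over the 8 libraries, the filter that left 13899 genes for testing. RNA sequencing had profiled SK-Hep1, an established human cell line. Cells with ectopic expression of SLC29A2, an equilibrative nucleoside transporter, were set beside mock control cells. Each received sorafenib and dipyridamole together, dipyridamole alone, sorafenib alone, or a control treatment for which the labels name no drug. Sorafenib inhibits RAF and several receptor kinases, and dipyridamole inhibits nucleoside transporters and phosphodiesterases. Each of the 8 conditions had 1 library, so no condition had a replicate. The labels name no drug dose, no treatment time and no promoter for SLC29A2, and do not say whether the SLC29A2 cells are 1 clone or a pool.

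SLC29A2 stood at 1477 to 3039.7 FPKM in SLC29A2 cells, against 7.11 to 7.81 FPKM in control cells, in the direction the labels state. The libraries held about 14070000 to 16690000 reads, at which 1 read in a gene model of 2 kb was worth 0.03 to 0.0355 FPKM. The dipyridamole-treated libraries of control cells stood apart in composition, with 2.48% and 2.68% of reads in non-coding genes against 1.6% to 1.93% in the other 6. Mitochondrial transcripts took 1.88% to 5.74% of reads. The hepatocyte markers ALB, TTR, AHSG, FGB, TF and HNF4A were at 0 to 0.131 FPKM in every library, at or near 0 in a line named for the liver. The endothelial markers PECAM1 and CDH5 were at 0 to 0.259 FPKM, also at or near 0. Among other endothelial markers, TEK was at most 0.0368 FPKM, ESAM 0.125 to 0.682, VWF 0.172 to 1.66 and TIE1 0.895 to 5.02 FPKM. The leukocyte markers CD3E and LYZ were listed at 0, PTPRC reached 0.484 FPKM and CD14 2.02 FPKM. Of epithelial markers KRT19 ran at 30.4 to 81.3 FPKM, while EPCAM and CDH1 stayed at or under 0.338 FPKM and CLDN4 at or under 1.24 FPKM. The mesenchymal genes VIM, FN1 and COL1A1 were at 514 to 805, 389 to 757 and 14.01 to 33.3 FPKM, with CDH2 at or under 0.173 FPKM.

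Cells make cholesterol from acetyl-CoA through mevalonate, farnesyl diphosphate and squalene, and also take it up as lipoprotein, whose cholesterol leaves the lysosome through the NPC proteins. When cholesterol in the endoplasmic reticulum is low, the escort protein SCAP carries the SREBP transcription factors to the Golgi, where they are cut and freed to switch on the genes of synthesis and uptake. When cholesterol is plentiful, INSIG proteins hold SCAP back, and INSIG1 is itself a target of SREBP, so its messenger RNA is widely used as a readout of that system.

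SREBP acts at promoters together with the CCAAT-binding factor NF-Y, so the 250 bases before the start of each gene were searched on both strands. RefSeq gave such a window, on build GRCh38.p14, for 25 of the 28 genes. Starts are those of RefSeq, and the gene starts of GENCODE 29 given further on lie upstream of them for several genes. For IDI1 the order is reversed and the gap is wide. Its window (chr10:1056705-1056954, minus strand) lies outside the GENCODE 29 gene, which spans 1039152 to 1049170. The NF-Y box CCAAT was present in 19 of the 25 windows, and in 33.04% of the 27305 windows of this length in the table. The sterol regulatory element TCACNCCAC was present in 1 of the 25, that of SREBF2, the gene of SREBP-2, and in 0.88% of all windows. The lysosomal CLEAR element TCACGTGA, bound by TFEB and its relatives, was present in 1 of the 25, that of INSIG1, and in 0.89% of all windows. Windows of 6 genes whose levels passed the test with dipyridamole below are shown 5′ to 3′ with all matches in capitals, to let their spacing be compared. They belong to INSIG1 (chr7:155297628-155297877, plus strand), EBP (chrX:48521558-48521807, plus strand), MSMO1 (chr4:165327419-165327668, plus strand), NSDHL (chrX:152830813-152831062, plus strand), TMEM97 (chr17:28318950-28319199, plus strand) and NPC2 (chr14:74493513-74493762, minus strand).
INSIG1: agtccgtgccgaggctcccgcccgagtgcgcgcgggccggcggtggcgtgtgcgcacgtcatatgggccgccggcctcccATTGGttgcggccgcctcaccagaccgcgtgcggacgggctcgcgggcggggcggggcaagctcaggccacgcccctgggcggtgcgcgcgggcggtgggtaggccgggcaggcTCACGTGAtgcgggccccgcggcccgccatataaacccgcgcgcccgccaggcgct
EBP: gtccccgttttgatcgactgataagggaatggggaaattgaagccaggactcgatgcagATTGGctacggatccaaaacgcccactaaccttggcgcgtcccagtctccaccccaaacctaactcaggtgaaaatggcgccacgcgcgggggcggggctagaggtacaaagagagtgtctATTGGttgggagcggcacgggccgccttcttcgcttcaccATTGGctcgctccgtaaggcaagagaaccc
MSMO1: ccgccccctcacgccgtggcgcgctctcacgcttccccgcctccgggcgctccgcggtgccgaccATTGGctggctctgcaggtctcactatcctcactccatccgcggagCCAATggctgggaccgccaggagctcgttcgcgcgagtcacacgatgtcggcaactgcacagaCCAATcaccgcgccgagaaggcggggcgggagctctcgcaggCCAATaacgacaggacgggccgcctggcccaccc
NSDHL: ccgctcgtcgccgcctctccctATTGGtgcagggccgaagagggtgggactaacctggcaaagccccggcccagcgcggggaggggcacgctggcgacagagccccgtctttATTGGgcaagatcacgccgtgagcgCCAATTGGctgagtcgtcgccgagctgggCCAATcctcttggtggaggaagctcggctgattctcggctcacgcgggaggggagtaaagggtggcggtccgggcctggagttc
TMEM97: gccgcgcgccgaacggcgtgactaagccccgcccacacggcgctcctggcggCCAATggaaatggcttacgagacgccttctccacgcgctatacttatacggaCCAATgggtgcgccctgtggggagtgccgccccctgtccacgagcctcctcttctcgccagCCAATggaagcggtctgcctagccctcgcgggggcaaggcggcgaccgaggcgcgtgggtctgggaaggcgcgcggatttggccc
NPC2: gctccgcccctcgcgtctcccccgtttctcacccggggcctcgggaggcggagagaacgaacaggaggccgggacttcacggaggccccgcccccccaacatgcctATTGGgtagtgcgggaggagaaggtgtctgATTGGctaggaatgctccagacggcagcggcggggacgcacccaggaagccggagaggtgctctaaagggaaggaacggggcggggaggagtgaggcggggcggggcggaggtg
Each capital run is a CCAAT or its reverse complement ATTGG, apart from the longer run of INSIG1, which is the CLEAR match. In the NSDHL window a box on each strand overlaps, which gives a run of CCAAT and ATTGG that share letters. The count of CCAAT boxes was 1 in INSIG1, 3 in EBP, 4 in MSMO1, 5 in NSDHL, 3 in TMEM97 and 2 in NPC2. Windows of IDI1 and NPC1 held 0 matches of any of the motifs, and that of IDI1 is the window far from its measured gene model. A match is a stretch of letters and not a measured binding site. Only exact matches were counted, so a sterol regulatory element that departs from the letters searched would be missed.

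Levels differed widely between the genes. On the FPKM scale, which is per gene length, DHCR7, the reductase that turns 7-dehydrocholesterol into cholesterol, had the highest mean over the 8 libraries at 133, followed by SCAP at 127 and NPC1 at 109. The lowest was MYLIP, a ubiquitin ligase that degrades lipoprotein receptors, at 1.24 FPKM on 27 to 73 reads per library, and then CYP51A1, lanosterol demethylase, at 3.35 FPKM. The other 23 had means of 7.74 (ACAT2) to 70.7 FPKM (LSS). The order at the top was not fixed, since DHCR7 ranged from 93.7 to 209 FPKM, SCAP from 112 to 142 FPKM and NPC1 from 47.7 to 190.4 FPKM, so that these ranges overlapped. Between genes the order also rests on the length used, the mean over annotated transcripts. That was 1053 bases for DHCR7, 1451 for NPC1 and 5340 for SOAT1. In control cells with the control treatment SOAT1 had 2494 reads and NPC1 1671, at 27.98 and 68.99 FPKM. SREBF2 was at 41.8 to 67.8 FPKM. Of the exon bases of CYP51A1 79.4% are shared with another annotated locus on the same strand, and HSD17B7 has closely related pseudogenes, so the levels of both are uncertain.

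**Figure D1:**
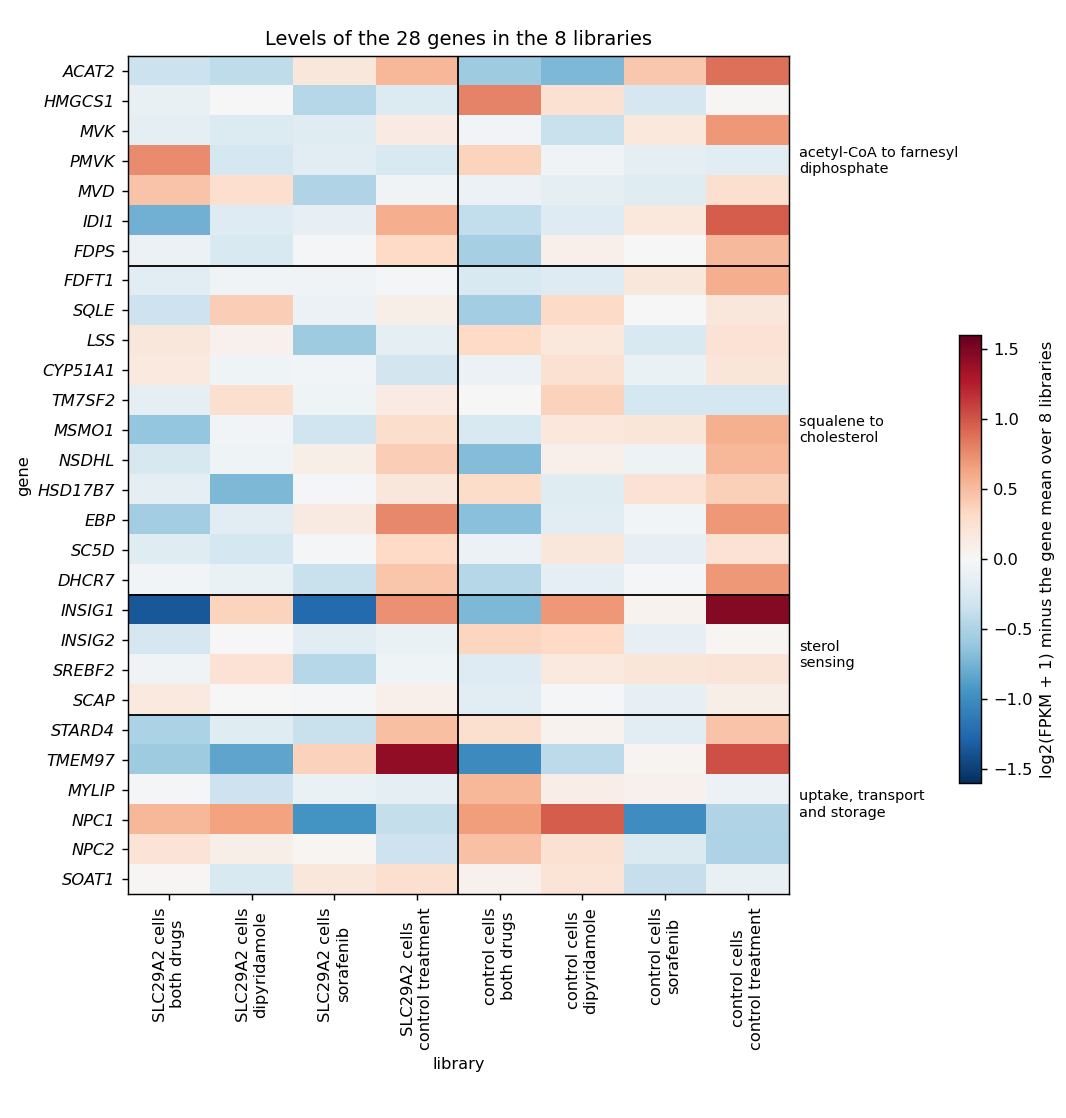
Levels of the 28 genes in each library, as log2(FPKM + 1) minus the mean of that gene over the 8 libraries (colour); rows are genes grouped by role and columns are libraries, those of SLC29A2 cells on the left. TMEM97, EBP, IDI1 and ACAT2 are higher in the libraries without dipyridamole than in those with it, NPC1 shows the opposite, and INSIG1 is lowest in SLC29A2 cells given both drugs or sorafenib.

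Dipyridamole was compared with its absence over both cell types and with or without sorafenib, which gives 4 pairs of libraries that differ in this drug alone. The lysosomal cholesterol exporters NPC1 and NPC2 rose, while TMEM97, the early enzyme genes ACAT2 and IDI1, the late enzyme genes EBP, NSDHL and MSMO1, and the sensor INSIG1 fell. In all, 7 of the 28 genes fell and 2 rose at an adjusted p below 0.05 in limma, against 12.6% of all tested genes that fell and 17.5% that rose. The median difference of the 28 was -0.14 on the log2(FPKM + 1) scale, against 0.07 over all tested genes. The 4 libraries with the drug did not overlap the 4 without it in 5 of the 28 genes downward and 2 upward, against 11.7% and 13% of all tested genes. By role, 2 of 7 genes from acetyl-CoA to farnesyl diphosphate fell, 3 of 11 from squalene to cholesterol fell, 1 of 4 sensing genes fell, and in the group of uptake, transport and storage 1 of 6 fell and 2 rose. Of 24 listed markers of other cell types and of the line, 6 passed the filter, and 1 of them, the mesenchymal gene VIM, fell with dipyridamole (-0.45 ± 0.12; adjusted p = 0.0202). FN1 (-0.34 ± 0.13), COL1A1 (0.07 ± 0.20), KRT19 (0.57 ± 0.23), CD14 (-0.53 ± 0.20) and TIE1 (0.30 ± 0.25) did not pass. The summed level of the 4 mesenchymal markers was 975 to 1060.3 FPKM with dipyridamole and 1143 to 1590.5 FPKM without it, and that of the 6 endothelial markers 3.30 to 5.59 FPKM with it and 2.054 to 3.27 FPKM without it. The sum of the 4 epithelial markers was 61.7 to 82.1 FPKM with dipyridamole and 30.9 to 70.4 FPKM without it, and that of the 4 leukocyte markers 0.228 to 1.43 FPKM with it and 1.08 to 2.15 FPKM without it. The 6 hepatocyte markers summed to at most 0.235 FPKM. The share of non-coding reads was also higher in the dipyridamole-treated libraries of control cells, as given above. The part of these markers and of that share in the results was not tested.

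NPC1 (ENSG00000141458; chromosome 18, 23506184 to 23586898, minus strand, GRCh38 as for all positions here) encodes the membrane protein that carries cholesterol out of the lysosome. It had 152 FPKM with dipyridamole and 139.7 FPKM with both drugs in SLC29A2 cells, against 49.1 FPKM with sorafenib and 73.9 FPKM with the control treatment. In control cells it had 190.4 FPKM with dipyridamole and 154 FPKM with both drugs, against 47.7 FPKM with sorafenib and 68.99 FPKM with the control treatment. All 4 libraries with dipyridamole lay above all 4 without it. The mean was 159 ± 21.9 FPKM with dipyridamole and 59.9 ± 13.5 FPKM without it (SD, n = 4 libraries each), a difference of 1.41 ± 0.12 in log2(FPKM + 1) (SE; limma adjusted p = 1.0e-04). NPC2 (ENSG00000119655; chromosome 14, 74476192 to 74494177, minus strand), the soluble partner that hands cholesterol to NPC1, had 63.1 FPKM with dipyridamole and 69.04 FPKM with both drugs in SLC29A2 cells, against 60.2 FPKM with sorafenib and 46.7 FPKM with the control treatment. Its control-cell libraries held 70.3 FPKM with dipyridamole and 82.2 FPKM with both drugs, against 50.1 FPKM with sorafenib and 41.6 FPKM with the control treatment. These groups did not overlap either, although the 63.1 FPKM of SLC29A2 cells given dipyridamole was close to the 60.2 FPKM of those given sorafenib. The difference for NPC2 was 0.52 ± 0.11 (adjusted p = 0.00995), and its call was lost without both dipyridamole-treated libraries of control cells. Exons on the other strand overlap both genes, those of RMC1 by 5.98% of the exon bases of NPC1 and those of ISCA2 by 3.75% of those of NPC2. RMC1 differed by 0.08 ± 0.13 and ISCA2 by 0.12 ± 0.11, and neither passed.

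TMEM97 (ENSG00000109084; chromosome 17, 28319095 to 28328685, plus strand), known as the sigma-2 receptor and a membrane protein that binds NPC1, showed the largest fall of the 28. It stood at 10.1 FPKM with dipyridamole and 12.5 FPKM with both drugs in SLC29A2 cells, against 24.9 FPKM with sorafenib and 52.5 FPKM with the control treatment. The control-cell levels were 13.9 FPKM with dipyridamole and 8.85 FPKM with both drugs, against 19.7 FPKM with sorafenib and 39.999 FPKM with the control treatment. Every library with dipyridamole lay below every library without it, and the lowest were those of SLC29A2 cells given dipyridamole and control cells given both drugs. Its mean was 11.4 ± 2.30 FPKM with dipyridamole and 34.3 ± 14.9 FPKM without it (SD, n = 4 libraries each), a difference of -1.43 ± 0.21 (SE; limma adjusted p = 0.00141). Exons of TMEM97 and of IFT20 on the other strand share 361 bases, 11.9% of the exon bases of TMEM97. IFT20 differed by 0.35 ± 0.19 in the same comparison (adjusted p = 0.198), with the opposite sign.

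Among the genes from acetyl-CoA to farnesyl diphosphate, ACAT2 (ENSG00000120437; chromosome 6, 159760328 to 159779055, plus strand), the cytosolic thiolase that joins the first acetyl units, had 5.13 FPKM with dipyridamole and 5.42 FPKM with both drugs in SLC29A2 cells, against 8.21 FPKM with sorafenib and 10.7 FPKM with the control treatment. In control cells ACAT2 was at 3.94 FPKM with dipyridamole and 4.48 FPKM with both drugs, against 9.99 FPKM with sorafenib and 14.03 FPKM with the control treatment. The groups did not overlap, and the difference was -1.02 ± 0.17 (limma adjusted p = 0.00287). ACAT2 shares 397 exon bases, 9.24% of its own, with TCP1 on the other strand, which differed by -0.20 ± 0.11 (adjusted p = 0.192). It also shares 26.5% with SOD2 and 33.9% with SOD2-OT1 on that strand, which were not analysed here. The labels state no strand, so reads in such shared bases cannot be told apart. IDI1 (ENSG00000067064; chromosome 10, 1039152 to 1049170, minus strand), the isomerase of isopentenyl diphosphate, had 12.9 FPKM with dipyridamole and 8.39 FPKM with both drugs in SLC29A2 cells, against 13.7 FPKM with sorafenib and 22.98 FPKM with the control treatment. Its control-cell libraries were at 12.9 FPKM with dipyridamole and 11.2 FPKM with both drugs, against 17.1 FPKM with sorafenib and 30.4 FPKM with the control treatment. With the drug no library exceeded 12.9 FPKM and without it none was below 13.7 FPKM, and the difference was -0.80 ± 0.13 (adjusted p = 0.00239). The antisense gene IDI2-AS1, which shares 14.8% of the exon bases of IDI1, had a mean of 0.451 FPKM. The other 5 genes of this stretch did not pass: HMGCS1, which makes HMG-CoA, had 0.46 ± 0.16 (adjusted p = 0.0532), the kinases MVK -0.39 ± 0.17 and PMVK 0.39 ± 0.17, the decarboxylase MVD 0.24 ± 0.19 and farnesyl diphosphate synthase FDPS -0.39 ± 0.14. HMGCS1 was higher with dipyridamole in all 4 pairs (0.22 to 1.06), the opposite sign to ACAT2 and IDI1, and passed upward when recovered reads were tested with voom.

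Of the enzymes from squalene to cholesterol, EBP (ENSG00000147155; chromosome X, 48521158 to 48528716, plus strand), a sterol isomerase, had 43.6 FPKM with dipyridamole and 33.2 FPKM with both drugs in SLC29A2 cells, against 54.5 FPKM with sorafenib and 84.8 FPKM with the control treatment. In control cells EBP stood at 43.4 FPKM with dipyridamole and 30.7 FPKM with both drugs, against 47.8 FPKM with sorafenib and 80.3 FPKM with the control treatment. The 4 libraries with dipyridamole were all below the 4 without it, and the cell types were close to each other under each treatment. Its mean was 37.7 ± 6.74 FPKM with dipyridamole and 66.9 ± 18.4 FPKM without it (SD, n = 4 libraries each), a difference of -0.78 ± 0.10 (limma adjusted p = 7.6e-04). NSDHL (ENSG00000147383; chromosome X, 152830967 to 152869729, plus strand) and MSMO1 (ENSG00000052802; chromosome 4, 165327623 to 165343160, plus strand) encode enzymes that remove the methyl groups of the sterol ring. NSDHL had 26.04 FPKM with dipyridamole and 22.8 FPKM with both drugs in SLC29A2 cells, against 29.2 FPKM with sorafenib and 36.1 FPKM with the control treatment. For NSDHL, control cells held 28.9 FPKM with dipyridamole and 16.5 FPKM with both drugs, against 25.9 FPKM with sorafenib and 39.9 FPKM with the control treatment. Its groups overlapped, since the 25.9 FPKM of control cells given sorafenib alone lay below 28.9 FPKM with dipyridamole alone, and the difference was -0.47 ± 0.12 (adjusted p = 0.0202). MSMO1 had 19.5 FPKM with dipyridamole and 12.8 FPKM with both drugs in SLC29A2 cells, against 15.9 FPKM with sorafenib and 24.8 FPKM with the control treatment. Its levels in control cells were 22.8 FPKM with dipyridamole and 16.8 FPKM with both drugs, against 23.2 FPKM with sorafenib and 30.2 FPKM with the control treatment. The groups overlapped here too, with a difference of -0.36 ± 0.10 (adjusted p = 0.0275).

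The other 8 genes of this stretch did not pass with dipyridamole. FDFT1, squalene synthase, had -0.34 ± 0.13, SQLE, squalene epoxidase, -0.09 ± 0.14, and LSS, lanosterol synthase, 0.36 ± 0.13 (adjusted p = 0.0855, 0.653 and 0.0697). FDFT1 was among the genes whose groups did not overlap, at 40.97 to 46.67 FPKM with the drug and 46.73 to 73.36 FPKM without it, so their nearest libraries were almost level. The remaining values were 0.13 ± 0.16 for CYP51A1, 0.24 ± 0.14 for the sterol reductase TM7SF2, -0.39 ± 0.16 for HSD17B7, -0.19 ± 0.13 for the desaturase SC5D and -0.38 ± 0.17 for DHCR7. DHCR7 was highest in the libraries given the control treatment, at 176 FPKM in SLC29A2 cells and 209 FPKM in control cells, against 93.7 to 126 FPKM in the 6 libraries with a drug.

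**Figure D2:**
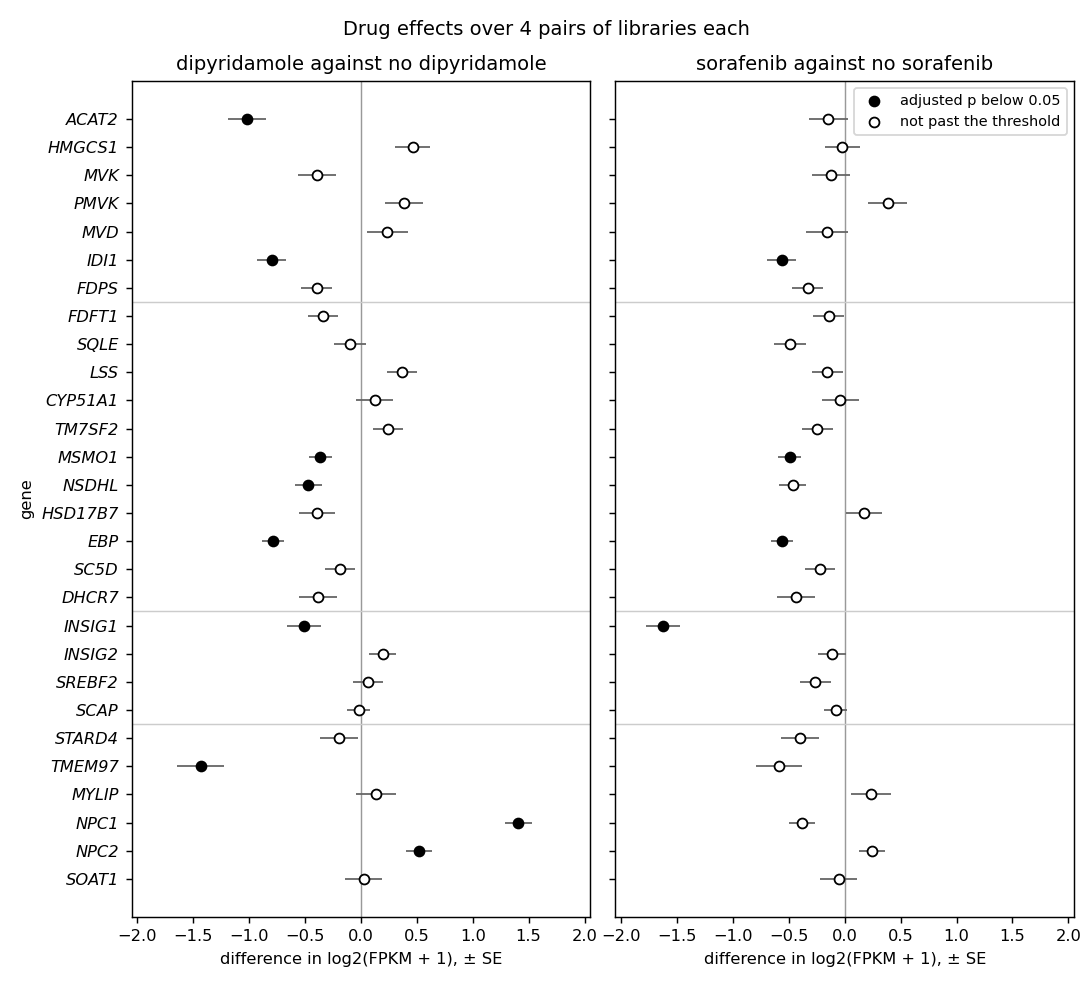
Differences in log2(FPKM + 1) for the 28 genes, with dipyridamole against without it (left) and with sorafenib against without it (right); points are estimates over 4 pairs of libraries, bars are SE, and filled points have an adjusted p below 0.05. Dipyridamole moved genes both ways, from -1.43 for TMEM97 to 1.41 for NPC1, while all 4 filled points of sorafenib lie below 0.

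Sensing genes differed among themselves. INSIG1 (ENSG00000186480; chromosome 7, 155297776 to 155310235, plus strand) had 31.2 FPKM with dipyridamole and 8.82 FPKM with both drugs in SLC29A2 cells, against 9.56 FPKM with sorafenib and 40.7 FPKM with the control treatment. In control cells INSIG1 measured 39.7 FPKM with dipyridamole and 14.3 FPKM with both drugs, against 25.1 FPKM with sorafenib and 68.4 FPKM with the control treatment. It was lower with dipyridamole in all 4 pairs (-0.77 to -0.11), but the groups overlapped, since the libraries with sorafenib alone lay below those with dipyridamole alone. The difference was -0.51 ± 0.15 (limma adjusted p = 0.0336). INSIG2, SREBF2 and SCAP did not pass, with 0.19 ± 0.12, 0.06 ± 0.14 and -0.02 ± 0.10. In the last group STARD4, a cytosolic sterol carrier, MYLIP and SOAT1, which esterifies cholesterol, did not pass either, with -0.20 ± 0.17, 0.14 ± 0.18 and 0.02 ± 0.16.

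With each library left out in turn, NPC1, NPC2, TMEM97, ACAT2, IDI1 and EBP kept their dipyridamole calls in all 8 refits (highest adjusted p = 0.0427, for NPC2). INSIG1 and NSDHL kept theirs in 3 refits each and MSMO1 in 1, with the highest adjusted p at 0.117 for INSIG1 and 0.109 for MSMO1, both without the control cells given sorafenib, and 0.0672 for NSDHL without the control cells given both drugs. The count of genes that fell was 4 when the library of control cells with the control treatment, with sorafenib or with both drugs was left out. It was also 4 without both dipyridamole-treated libraries of control cells, where TMEM97, ACAT2, IDI1 and EBP remained. The count that rose was 4 without the control cells given dipyridamole and 1 without both dipyridamole-treated libraries of control cells, NPC1.

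Sorafenib was compared with its absence in the same way. INSIG1 fell most, and EBP, MSMO1 and IDI1 fell by smaller amounts, so that 4 of the 28 genes fell and 0 rose in limma, against 2.17% and 5.94% of all tested genes. Of the 28, 11 had an unadjusted p under 0.05, against 26.6% of all tested genes. Recovered reads were available for 25 of the 28, without IDI1, and voom on these called INSIG1, EBP, MSMO1 and NSDHL lower and 0 higher. Over all genes voom called 1385 of 12700, of which 1036 were higher. Among all tested genes 73.2% of the sorafenib calls in limma were higher. With size factors 6 of the 28 genes fell and 0 rose, and 948 of the 13899 tested genes were called, 478 (50.4%) of them higher. Before that scaling the median difference of the 28 was -0.19, against 0.09 over all tested genes. At the same setting 24 of the 28 had a negative estimate, against 37.1% of all tested genes. After division by size factors 24 of the 28 were negative, against 51% of all tested genes, with medians of -0.29 and -0.01. For dipyridamole 16 of the 28 were negative before that scaling and 18 after it, against 43.3% and 48.8% of all tested genes. With size factors 9 of the 28 fell and 2 rose with dipyridamole, and 4284 of all tested genes were called, 2079 of them higher. For dipyridamole in limma 16 of the 28 had an unadjusted p under 0.05, against 42% of all tested genes. Libraries with sorafenib did not overlap those without it in 2 of the 28 genes downward, INSIG1 and SQLE, and 0 upward, against 2.14% and 5.83% of all tested genes. By role, 1 of 7 genes from acetyl-CoA to farnesyl diphosphate, 2 of 11 from squalene to cholesterol, 1 of 4 sensing genes and 0 of 6 genes of uptake, transport and storage fell. Mitochondrial transcripts took 1.88%, 2.25%, 3.04% and 3.34% of reads in the libraries with sorafenib, against 3.71%, 4.05%, 4.54% and 5.74% in those without it, so the groups did not overlap. None of the 6 markers that passed the filter was called with sorafenib (2 at an unadjusted p under 0.05, CD14 at 0.74 ± 0.20 and TIE1 at -0.68 ± 0.25). The summed level of the leukocyte markers was 1.39 to 2.15 FPKM with sorafenib and 0.228 to 1.43 FPKM without it, and that of the endothelial markers 2.054 to 3.86 FPKM with it and 2.22 to 5.59 FPKM without it. The mesenchymal sum was 1022 to 1590.5 FPKM with sorafenib and 975 to 1323 FPKM without it, and the epithelial sum 30.9 to 70.4 FPKM with it and 31.4 to 82.1 FPKM without it. The part of the mitochondrial share and of these markers in the results was not tested.

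INSIG1 had 8.82 FPKM with both drugs and 9.56 FPKM with sorafenib in SLC29A2 cells, against 31.2 FPKM with dipyridamole and 40.7 FPKM with the control treatment. In control cells the sorafenib-treated libraries had 14.3 and 25.1 FPKM, against 39.7 and 68.4 FPKM without sorafenib. The mean was 14.5 ± 7.53 FPKM with sorafenib and 44.995 ± 16.2 FPKM without it (SD, n = 4 libraries each), a difference of -1.63 ± 0.15 (SE; limma adjusted p = 0.0025), and its p was the 7th smallest of 13899. The pairs ran from -1.98 to -1.41, and the call held in all 8 refits with a library left out (highest adjusted p = 0.0165). EBP, at the levels given above, differed by -0.56 ± 0.10 (adjusted p = 0.016), MSMO1 by -0.49 ± 0.10 (0.0268) and IDI1 by -0.56 ± 0.13 (0.0342). All 3 were lower in all 4 pairs, and within each cell type and dipyridamole condition the library with sorafenib lay below its partner. In the same refits EBP kept its call in 5 of 8 (highest adjusted p = 0.0601, without the control cells given sorafenib), IDI1 in 1 (0.103) and MSMO1 in 0 (0.084), the last 2 highest without the SLC29A2 cells given dipyridamole. The count of genes that fell was 1 without the control cells given sorafenib and 1 without the SLC29A2 cells given the control treatment. It was 2 when any other library of control cells or that of SLC29A2 cells given sorafenib was left out. Without both dipyridamole-treated libraries of control cells it was 2 as well, INSIG1 and IDI1.

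**Figure D3:**
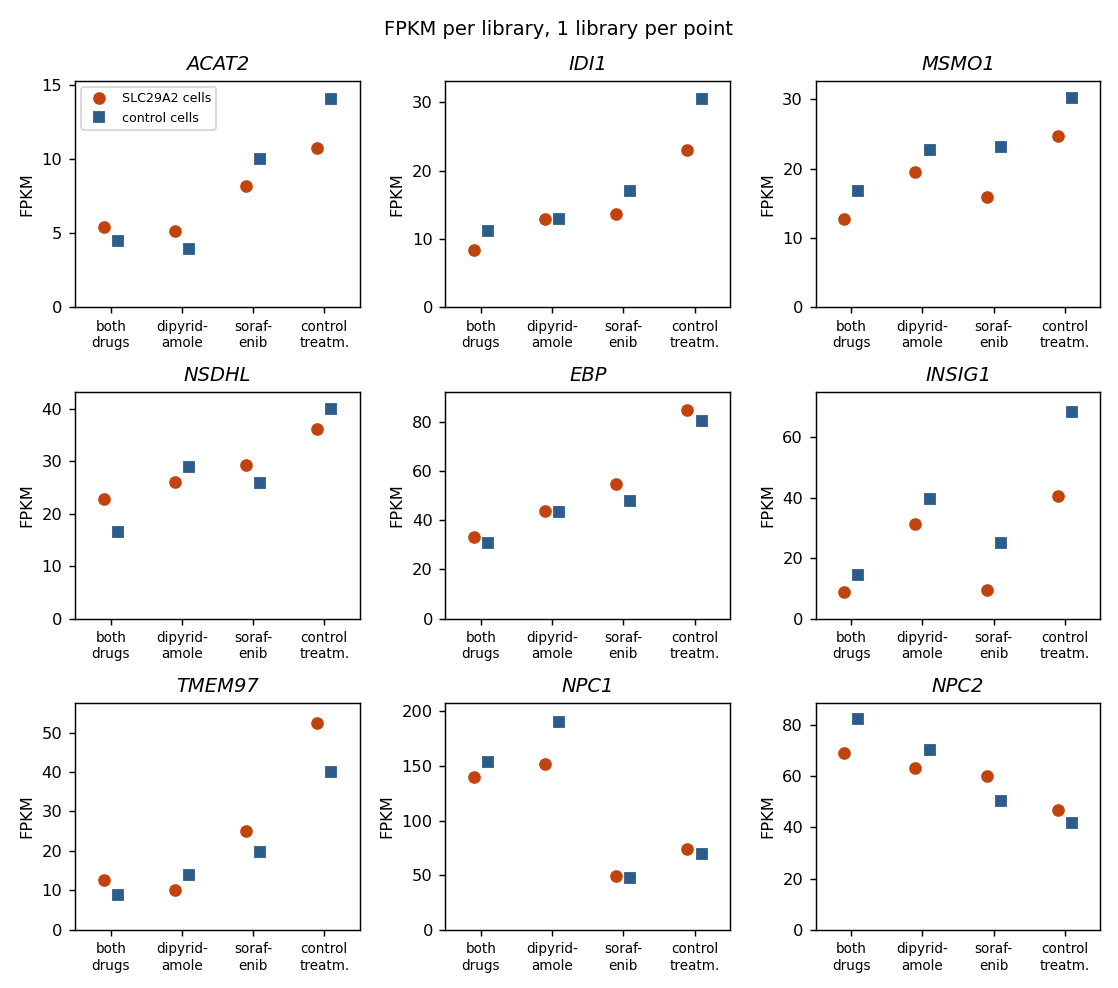
FPKM of the 9 genes that passed the threshold for dipyridamole or sorafenib, by treatment; each point is 1 library, circles are SLC29A2 cells and squares are control cells. NPC1 sits at 139.7 to 190.4 FPKM with dipyridamole and 47.7 to 73.9 FPKM without it, and INSIG1 at 8.82 to 25.1 FPKM with sorafenib and 31.2 to 68.4 FPKM without it.

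Some genes were lower with sorafenib in all 4 pairs but did not pass. NSDHL had -0.47 ± 0.12 (limma adjusted p = 0.0514), SQLE -0.49 ± 0.14 (0.069) and NPC1 -0.38 ± 0.12 (0.0781). SQLE was at 25.5 to 38.3 FPKM with sorafenib and 40.7 to 50.4 FPKM without it. NPC1 had opposite signs for the drugs, lower with sorafenib in all 4 pairs (-0.58 to -0.12) and higher with dipyridamole in all 4 (1.03 to 1.67). TMEM97 differed by -0.59 ± 0.21, DHCR7 by -0.44 ± 0.17, FDPS by -0.33 ± 0.14 and STARD4 by -0.40 ± 0.17, each with an adjusted p of 0.113 to 0.176. Each of these 4 genes was lower in 3 pairs and higher in 1. The other 17 genes ran from -0.26 ± 0.14 for SREBF2 to 0.38 ± 0.17 for PMVK, with adjusted p from 0.189 for PMVK to 0.95 for HMGCS1. Of those 17, FDFT1 (-0.40 to -0.04) and SREBF2 (-0.39 to -0.02) were also lower in all 4 pairs.

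The combination of both drugs was set against the control treatment within each cell type, with 1 library on each side, so that the values are given without a test. In SLC29A2 cells 4 of the 28 genes were at least 2-fold lower on the log2(FPKM + 1) scale, against 7.81% of tested genes, and 1 was at least 2-fold higher, against 10%. Those lower were INSIG1 (-2.09), TMEM97 (-1.98), IDI1 (-1.35) and EBP (-1.33), and the one higher was PMVK, at 22.6 FPKM with both drugs, against 10.8 FPKM with the control treatment. In control cells 8 were at least 2-fold lower, against 4.89% of tested genes, and 1 at least 2-fold higher, against 14.2%. INSIG1 (-2.18), TMEM97 (-2.06), IDI1 (-1.37) and EBP (-1.36) were again among them, with ACAT2 (-1.45), NSDHL (-1.23), DHCR7 (-1.15) and FDPS (-1.04), while NPC1 (1.14) was the one higher. Relative to the control treatment, EBP in SLC29A2 cells was -1.33 with both drugs, -0.94 with dipyridamole and -0.63 with sorafenib. The same values for EBP in control cells were -1.36, -0.87 and -0.74. The median over the 28 with both drugs was -0.29 in SLC29A2 cells and -0.33 in control cells, against 0.07 and 0.25 over all tested genes.

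Whether the effect of one factor depended on another was tested by adding each interaction to the model. For sorafenib by dipyridamole 0 of the 28 genes passed in limma, and 0 of 25 with voom, against 0.0863% of all tested genes in limma. At an unadjusted p under 0.05 there were 7 of the 28, against 13.2% of all tested genes. Division by size factors moved the median of all genes for this interaction to 0.00 on the log2 scale, against 0.11 before it, and again 0 of the 28 passed. The smallest p belonged to SQLE (-0.61 ± 0.19; adjusted p = 0.269), HSD17B7 (0.69 ± 0.21; 0.269) and LSS (0.57 ± 0.18; 0.274). SQLE had 29.98 FPKM with both drugs and 50.4 FPKM with dipyridamole in SLC29A2 cells, and 35.4 FPKM with sorafenib and 40.7 FPKM with the control treatment, so that the sorafenib library was further below its partner where dipyridamole was given. In control cells SQLE had 25.5 and 47.1 FPKM beside dipyridamole, and 38.3 and 43.04 FPKM without it, in the same order. LSS was lower with sorafenib alone, at 46.7 FPKM against 62.4 FPKM with the control treatment in SLC29A2 cells, and 58.7 FPKM against 81.5 FPKM in control cells. Beside dipyridamole LSS was higher with sorafenib, at 78.6 FPKM with both drugs against 72.7 FPKM with dipyridamole in SLC29A2 cells, and 86.9 FPKM against 78.3 FPKM in control cells.

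The cell types were compared over all 4 treatments. None of the 28 genes passed in limma in either direction, and 0 of 25 with voom, against 0% of all tested genes lower and 0.00719% higher, where the 1 gene was SLC29A2 itself. At an unadjusted p under 0.05 were 4 of the 28, against 3.93% of all tested genes. INSIG1 had the smallest p of the 28, the 9th smallest of 13899, at -0.75 ± 0.15 (adjusted p = 0.965). INSIG1 was lower in SLC29A2 cells in all 4 pairs: 8.82 FPKM in SLC29A2 cells against 14.3 FPKM in control cells with both drugs, 31.2 against 39.7 FPKM with dipyridamole, 9.56 against 25.1 FPKM with sorafenib, and 40.7 against 68.4 FPKM with the control treatment. MSMO1 (-0.34 ± 0.10) and HMGCS1 (-0.40 ± 0.16) came next, both lower in SLC29A2 cells in all 4 pairs and both with an adjusted p of 0.965. Interactions of cell type with sorafenib passed for 0 of 28 genes in limma and 0 of 25 with voom (0 of 28 at an unadjusted p under 0.05, against 0.719% of all tested genes), against 0% of all tested genes called in limma, and the smallest p were those of NSDHL (0.45 ± 0.24), FDPS (0.47 ± 0.26) and CYP51A1 (0.55 ± 0.32), each with an adjusted p of 1. Size factors moved the median of all genes for the interaction of cell type with dipyridamole to -0.01, against -0.14 before. This interaction passed for 0 of 28 genes in limma and 0 of 25 with voom, against 0% of all tested genes in limma. At an unadjusted p under 0.05 were 5 of the 28, against 19.8% of all tested genes. SOAT1 (-0.72 ± 0.21; adjusted p = 0.146), SREBF2 (0.57 ± 0.18; 0.166) and MVD (0.78 ± 0.26; 0.182) had the smallest p there. SOAT1 was at 25.4 FPKM with dipyridamole against 36.5 FPKM with the control treatment in SLC29A2 cells, and at 35.5 FPKM against 27.98 FPKM in control cells.

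Genes around the pathway were counted from lists chosen for their function. Of 9 genes of SREBP processing and sterol-regulated turnover, 2 fell and 0 rose with dipyridamole in limma, and 0 passed with sorafenib (3 at an unadjusted p under 0.05). Of 9 genes of the isoprenoid branch, which leads from farnesyl diphosphate to dolichol, coenzyme Q and protein prenylation, 2 fell and 1 rose with dipyridamole, and 0 passed with sorafenib (0 at an unadjusted p under 0.05). Only 2 of 6 genes of liver X receptors and oxysterols passed the filter, of which 1 rose with dipyridamole and 0 passed with sorafenib (1 at an unadjusted p under 0.05). Of 11 genes of sterol transfer and ester hydrolysis, 2 fell and 3 rose with dipyridamole, and 2 fell and 0 rose with sorafenib. The shares of all tested genes given above for each drug apply to these counts too, and the counts at an unadjusted p stand beside 26.6% for sorafenib.

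NCEH1, a hydrolase of cholesterol esters, fell with each drug. It had 26.5 FPKM with both drugs, 48.7 FPKM with dipyridamole and 66.6 FPKM with sorafenib in SLC29A2 cells, against 117 FPKM with the control treatment. In control cells NCEH1 was at 25.4, 56.01 and 57.6 FPKM in the same order, against 94.9 FPKM. The difference was -1.11 ± 0.11 for dipyridamole (limma adjusted p = 2.8e-04) and -0.87 ± 0.11 for sorafenib (0.00499). LIPA, the lysosomal lipase of cholesterol esters, fell with dipyridamole by a difference of -0.62 ± 0.12 (0.00503), and had -0.07 ± 0.12 with sorafenib. GRAMD1B, which moves cholesterol from the plasma membrane to the endoplasmic reticulum, fell with sorafenib (-0.92 ± 0.12; adjusted p = 0.00499). It was at 9.63 to 16.2 FPKM with sorafenib, against 20.99 to 27.3 FPKM without it. With dipyridamole ERLIN1, an endoplasmic reticulum protein of sterol-regulated degradation, fell by 0.97 on the log2 scale (adjusted p = 0.00105), and the coenzyme Q genes COQ2 and PDSS1 differed by -0.96 ± 0.14 (0.00166) and -0.74 ± 0.13 (0.00355). Rises were seen for DHDDS, an enzyme of dolichol synthesis, at 0.64 ± 0.10 (0.00184), for the oxysterol-binding family gene OSBPL2 at 0.64 ± 0.11 (0.00255), and for NR1H3, the gene of LXR alpha, at 0.82 ± 0.16 (0.00534). NR1H3 stood at 3.21 to 6.73 FPKM with dipyridamole and 1.47 to 2.70 FPKM without it. SREBF1, the gene of SREBP-1, did not pass for either drug, with -0.10 ± 0.12 for dipyridamole and -0.43 ± 0.12 for sorafenib, and ran at 290.5 to 452 FPKM. The dipyridamole calls of MBTPS1 (-0.35 ± 0.10), OSBP (0.42 ± 0.14) and OSBPL5 (0.41 ± 0.11) held in 1, 2 and 4 of 8 refits with a library left out; they are named, after their values were seen, to complete the counts. The other 10 calls named here each held in all 8 refits with a library left out.

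**Figure D4:**
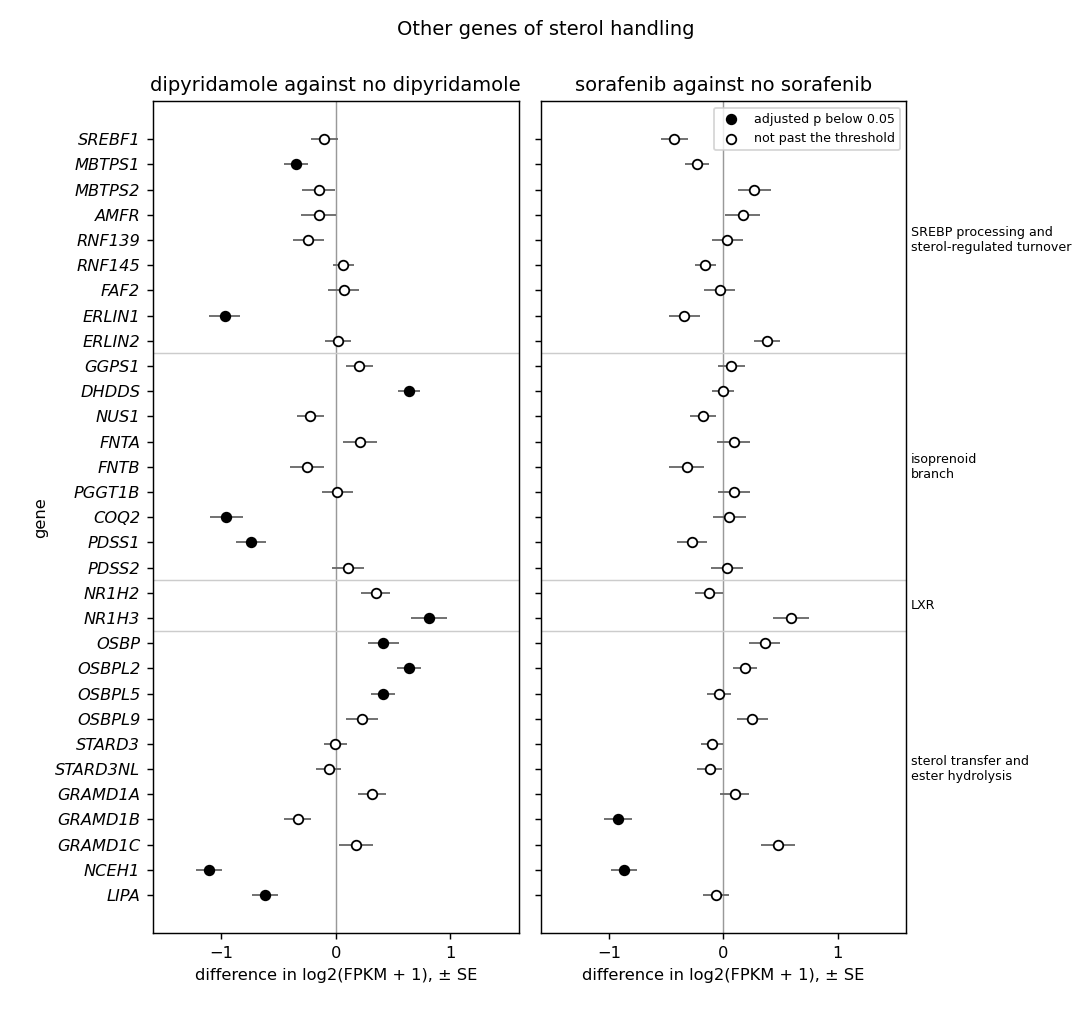
Differences in log2(FPKM + 1) for the other genes of sterol handling that passed the filter, with dipyridamole against without it (left) and with sorafenib against without it (right); bars are SE from the model and filled points have an adjusted p below 0.05. NCEH1 is the only filled gene in both panels, at -1.11 and -0.87.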

How the data were processed

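Libraries from 8 SK-Hep1 samples, 1 per condition, were made from poly(A)-selected RNA with a NEBNext Ultra kit, per the labels' protocols. The deposited values are FPKM computed by the authors. Of 58310 lines per table, 8 name no gene and were left out. For tools and build, TopHat2 2.0, HTSeq 0.6.1, edgeR and GRCh38.p12 are listed by the submitters' processing notes, with no role for any. Annotation came from GENCODE 29, which matched 58039 genes.

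Multiplying FPKM by the rounded mean transcript length recovered whole reads for 93.36% of values up to 1000 reads (tolerance 0.05). Library totals and reads of 93.86% of expressed genes follow from this, but not those of IDI1, CYP51A1 and HSD17B7.

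The 13899 genes that passed the 1 FPKM filter were fitted in limma 3.58.1 (R 4.3.3) on log2(FPKM + 1), which understates changes of low genes. Cell type and each drug were terms, the error followed a trend on mean level, p-values were two-sided, and Benjamini-Hochberg adjusted p below 0.05 counted as a call. Interactions were added singly. Without replicates, p-values set each difference against the spread that the model left among these 8 libraries, and the error also holds any omitted interaction. Variation between cultures of the same condition was not measured. The procedure was tested on simulated data. All 28 genes were described, those past the threshold in every library, and the 3 smallest p where 0 passed. Of the other lists up to 8 called genes per drug, those with the smallest p, were given with a difference and adjusted p, and some with levels. Genes and lists were chosen with earlier results of these data known. Alternatives were a pseudocount of 0.1, no filter, size factors, no trend, voom on recovered reads, all pairwise interactions, and omitted libraries. The model with all pairwise interactions has nearly as many terms as there are libraries, so little is left to estimate the error. In bulk RNA, fewer cells of a type and less RNA per cell cannot be told apart.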

Additional observations from a re-analysis of the deposited data

How the results depend on the processing

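The counts of the 28 genes past the threshold depended on the processing. For sorafenib 4 fell and 0 rose; 1 fell with no filter on low values, 13 fell and 2 rose with all pairwise interactions in the model, and 2 fell without both dipyridamole-treated libraries of control cells. With a library left out 1 to 3 fell and 0 rose. For dipyridamole 7 fell and 2 rose; 13 fell and 7 rose with all pairwise interactions in the model, and 4 fell and 1 rose without both dipyridamole-treated libraries of control cells. With a library left out 4 to 8 fell and 2 to 4 rose. The cause was not tested for any of these. The counts of 0 for cell type were 0 in every alternative run, and those for the 3 interactions in every run that tested them. The 3 interactions were not tested in the model with all pairwise interactions. They were also not tested without both dipyridamole-treated libraries of control cells. Over all genes the sorafenib count moved from 1127 (825 higher) to 136 (98 higher) with no filter, which left 31551 genes. It ranged from 272 to 914 (192 to 603 higher) with a library left out. The dipyridamole count moved from 4173 (2428 higher) to 2622 (1460 higher), and ranged from 2926 to 3641 (1563 to 2138 higher). With all pairwise interactions 4839 of the 13899 genes were called for sorafenib, 3413 of them higher, and 7411 for dipyridamole, 4366 of them higher. Without both dipyridamole-treated libraries of control cells 301 were called for sorafenib (207 higher) and 3168 for dipyridamole (1516 higher). No call of the genes named here reversed its sign. No fit with a replicate block was made, since each condition had 1 library and the labels give no replicate numbers; the additive model compares the libraries that differ in 1 factor, and their pairwise differences are given with the results. Depth limits MYLIP most, on 27 to 73 reads.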
